A study of Drosophila melanogaster with 2 samples.

Results

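Glycolysis splits 1 glucose into 2 pyruvate molecules and yields ATP. In Drosophila the genes for its enzymes are known to be switched up together during embryogenesis, ahead of larval growth, with the estrogen-related receptor ERR as a main activator. The 9 genes described here encode its central steps, from Pgi (phosphoglucose isomerase) through Pfk (phosphofructokinase, the committing step), Ald1 (aldolase), Tpi (triose phosphate isomerase), the pair Gapdh1 and Gapdh2 (glyceraldehyde-3-phosphate dehydrogenase), Pgk (phosphoglycerate kinase) and Pglym78 (phosphoglycerate mutase) to Eno (enolase). They were examined as 9 of the 13945 protein-coding genes annotated on the chromosome arms of the fly, for binding of Su(var)2-10, the fly PIAS-family protein that helps to attach the small modifier SUMO to other proteins. The genes were chosen by name with the strong Gapdh2 peak in these same peak lists already known, so values for Gapdh2 and its contrast with the other genes are descriptions and were not tested.

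The data were chromatin immunoprecipitation sequencing (ChIP-seq) profiles of whole Drosophila melanogaster embryos of mixed sex, collected from 0 to 24 h. The embryos carried an insertion that expresses Su(var)2-10 fused to GFP, and an anti-GFP antibody pulled down the tagged protein. The samples were 2 biological replicates of this 1 group, numbered 2 and 3 in the labels, so no condition was compared and no difference between conditions could be drawn. All tissues and ages of the embryo were mixed in each sample, so a strong site in few cells and a weak site in many cannot be told apart. The lists used, all on the dm6 build, were 30000 candidate peaks from each replicate, 30000 from the pooled replicates, and the 2942 that passed the authors' test of reproducibility (irreproducible discovery rate, IDR), called reproducible peaks here. The 2942 were exactly the 2942 pooled peaks of highest signal, with signals from 129 to 2409 and a median of 195. Signal is the authors' score and has no unit, so levels were compared inside 1 list. The only ratios between lists, those of the 2 replicates, are read against the same ratio over all matched peaks. Rank 1 is the highest signal of a list. The depth of the libraries is unknown, which leaves the counting error of each peak unknown as well.

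The strongest binding at these genes lay next to Gapdh2, Eno and Pgk, and DNA at or beside the strongest summit of each is printed here to show the bound regions. Each sequence runs 5′ to 3′ on the strand of the gene and was read from the RefSeq Release 6 genome (dm6). Capitals mark matches, on either strand, to the letters TATAAA (the TATA box, where a core promoter factor can bind), GAGAG (recognised by GAGA factor) and ACGTG (the core of hypoxia response elements). The Gapdh2 window covers 300 bp centred on the summit, chrX:15867842-15868141 on the plus strand, and ends 4 bp before the first annotated start site. The Eno stretch, chr2L:1727881-1728027 on the minus strand, is the 147 bp of intron on the upstream side and ends 3 bp before the summit, which itself is not in it. The Pgk window, chr2L:2751983-2752282 on the minus strand, is 300 bp of the first intron centred on the summit.
Gapdh2: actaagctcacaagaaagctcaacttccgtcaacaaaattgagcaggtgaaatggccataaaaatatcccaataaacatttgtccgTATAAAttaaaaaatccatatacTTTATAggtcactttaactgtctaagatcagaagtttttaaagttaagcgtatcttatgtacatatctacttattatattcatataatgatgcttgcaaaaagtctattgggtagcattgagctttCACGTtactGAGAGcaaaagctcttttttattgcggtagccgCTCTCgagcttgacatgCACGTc
Eno: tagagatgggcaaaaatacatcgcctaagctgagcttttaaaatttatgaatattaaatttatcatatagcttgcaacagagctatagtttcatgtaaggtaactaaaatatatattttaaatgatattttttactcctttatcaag
Pgk: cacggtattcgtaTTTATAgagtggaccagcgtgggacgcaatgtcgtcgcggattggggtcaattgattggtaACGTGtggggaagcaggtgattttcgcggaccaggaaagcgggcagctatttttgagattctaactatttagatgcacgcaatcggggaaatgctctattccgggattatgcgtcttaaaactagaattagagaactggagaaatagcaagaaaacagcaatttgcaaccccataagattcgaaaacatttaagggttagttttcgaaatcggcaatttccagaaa

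Of the 9 genes, 3 had a reproducible summit in the gene body or within 2 kb of it, namely Gapdh2, Pgk and Eno. Of all protein-coding genes 22.6% had one, and since Gapdh2 was chosen by its peak, nothing is read from the count of 3. The same 3 genes were found among the 2942 best peaks of replicate 2, where the background was 22.2%, and of replicate 3, where it was 22.5%. Counted over all 9 genes, the same 3 had a reproducible summit within 500 bp of one of their own start sites, against 12.1% of all protein-coding genes. In the longer pooled candidate list, 8 of the 9 genes had a summit in the window, all but Pglym78, against a background of 72.5%. In that list 7 had one within 500 bp of an own start site, against 36.7%, and Pgi and Pglym78 did not. The median window was 7170 bp for the 9 genes and 6166 bp for all protein-coding genes.

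**Figure D1:**
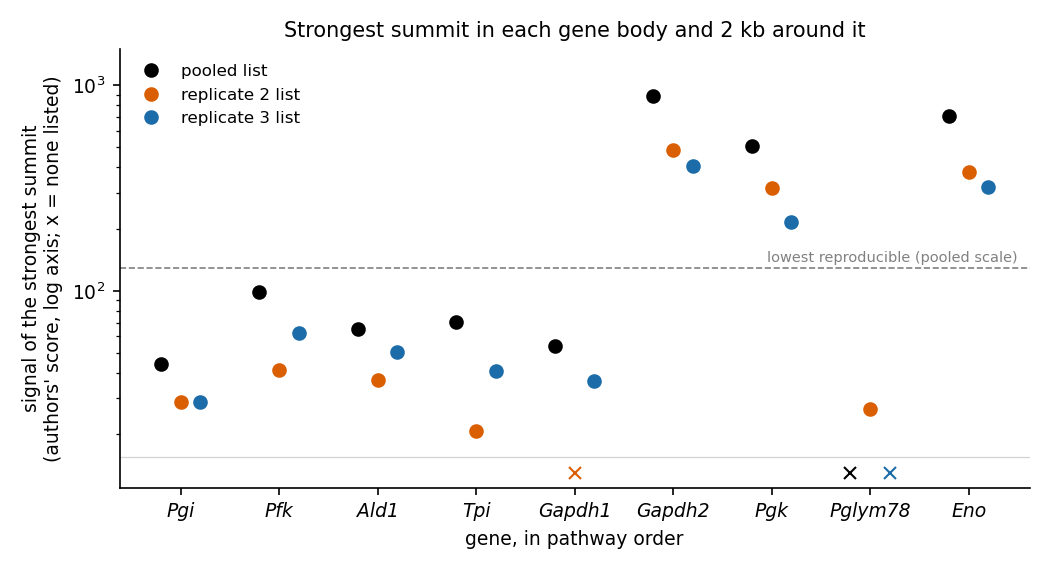
Signal of the strongest summit in each gene body and 2 kb around it (authors' score, log axis), with genes along the x axis in pathway order and 1 point for each list, pooled in black, replicate 2 in orange and replicate 3 in blue. Crosses mark lists with no summit, the dashed line is the lowest reproducible signal of 129 on the pooled scale, and Gapdh2, Pgk and Eno are above all other members in each list.

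Gapdh2 (FBgn0001092) lies on X from 15868145 to 15869661 on the plus strand and has 2 annotated start sites, at 15868145 and 15868211. Its enzyme oxidises glyceraldehyde-3-phosphate and makes the NADH of glycolysis. The strongest summit stood at 15867992, in the intergenic stretch 153 bp upstream of the first start site. Its signal was 891 in the pooled list (rank 26), 485 in replicate 2 (rank 28) and 405 in replicate 3 (rank 36). The replicates placed it within 15 bp of each other, 138 bp upstream of the start site in replicate 2 and 153 bp upstream in replicate 3. Of all protein-coding genes, 0.258% had as strong or stronger a pooled summit in their window. Ordered by signal, it was number 10 of the reproducible peaks that lay 500 bp or less from the start of a protein-coding gene. Its neighbours in that order were Hrd3 at 894 and bin3 at 891 just above, and Fkbp14 at 890 and CG1602 at 886 just below. Their summits also lay upstream, by 116 bp at Hrd3, 316 bp at bin3, 128 bp at Fkbp14 and 152 bp at CG1602.

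Binding near Gapdh2 was concentrated at that 1 site. A second reproducible summit stood at 15870937 with a pooled signal of 180 (rank 1674), 85.5 in replicate 2 and 90.3 in replicate 3. It is inside an intron of the neighbouring gene CG16952, 754 bp from the start site of that gene and downstream of Gapdh2, so it was counted for Gapdh2 by distance alone. The other 5 pooled summits in the window had signals from 45.8 to 114. One of them was at the second start site, 15 bp upstream of it, with a pooled signal of 58.2. Replicate 3 listed a summit there at 83.4 (rank 2236), and replicate 2 listed none. The gene body itself held pooled summits of at most 66.2, in the 3′ UTR.

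Gapdh1 (FBgn0001091), which encodes the same enzyme, showed no such site. It lies on 2R from 7791901 to 7793380 on the minus strand with 2 start sites. The strongest pooled summit had a signal of 54.1 (rank 13404) and stood just past the 3′ end of the gene, 1343 bp from a start site. The others were 43.5 and 38.3, both within the coding sequence, 311 and 575 bp inside the nearest start site. Replicate 3 listed the same 3 positions at 36.5, 22.7 and 23.2, and replicate 2 listed no summit in the window at all. No list placed a summit within 2 kb upstream of Gapdh1. The strongest Gapdh2 signal was 16.5 times the strongest of Gapdh1 in the pooled list and 11.1 times in replicate 3, and no ratio could be formed in replicate 2. As many as 51.5% of protein-coding genes had a pooled summit as strong as that of Gapdh1.

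The coding sequences of the pair are alike, which matters for reads that could map to both. Aligned over 996 bp, 884 positions (88.8%) were identical between Gapdh1 and Gapdh2. Every 31-base stretch in the 300 bp around the main Gapdh2 summit occurs once in the genome, that is 100% of them. In the coding sequence the share was 97.0% around the Gapdh1 summit of signal 38.3 and 99.3% around the Gapdh2 summit of signal 45.8. All other windows around pooled summits of the 9 genes were at 100%. The site with the high signal is outside the coding sequence the pair shares.

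**Figure D2:**
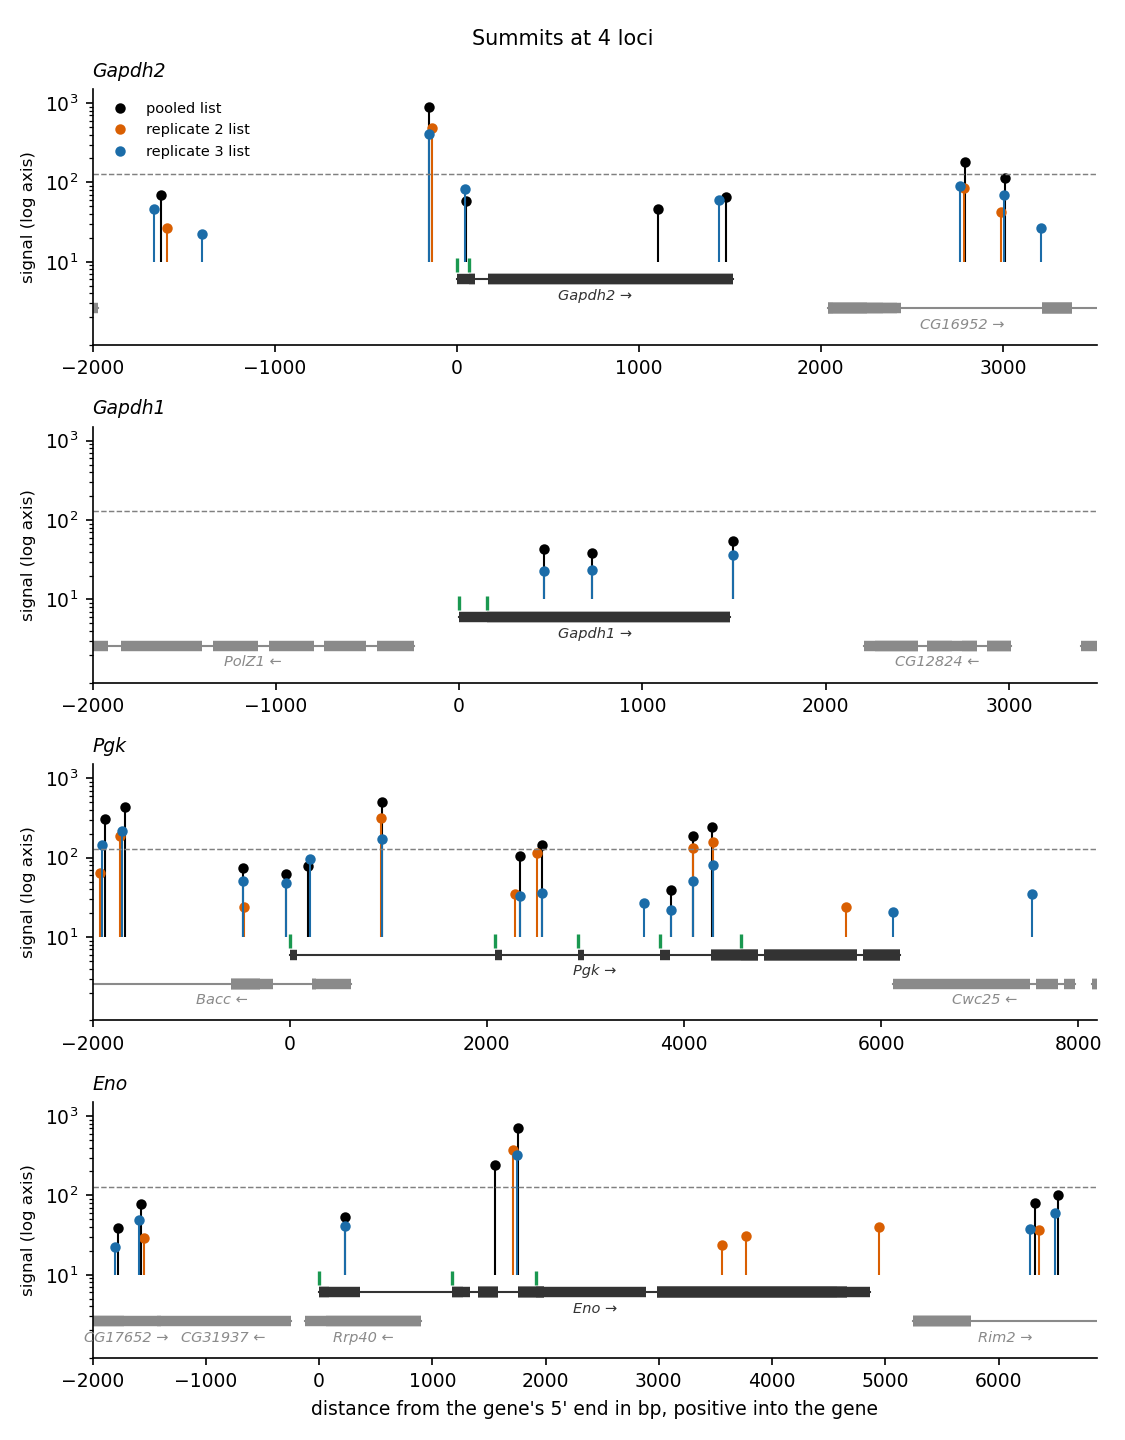
Summits at Gapdh2, Gapdh1, Pgk and Eno in the pooled (black), replicate 2 (orange) and replicate 3 (blue) lists, by distance from the 5′ end of the gene in bp and signal (log axis). Boxes below are exons with neighbouring coding genes in grey, green ticks are annotated start sites and the dashed line is the lowest reproducible pooled signal. Gapdh2 has 1 tall summit upstream of its start sites, Gapdh1 has low ones only, Pgk has tall summits spread through and beyond its body, and Eno has a pair beside an internal start site.

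Eno (FBgn0000579), the enzyme that turns 2-phosphoglycerate into phosphoenolpyruvate, lies on 2L from 1724768 to 1729636 on the minus strand. It has 3 start sites, at 1729636, 1728463 and 1727717, each used by 2 annotated transcripts. Its strongest summit, at 1727878, had a pooled signal of 709 (rank 66), 378 in replicate 2 (rank 69) and 319 in replicate 3 (rank 84). It stood 161 bp upstream of the innermost start site, at the edge of an exon that is 5′ UTR in transcripts from farther upstream. The replicate summits were 203 and 174 bp upstream of the same start site. The signal at Gapdh2 was 1.26 times that at Eno in the pooled list, 1.28 times in replicate 2 and 1.27 times in replicate 3, so the ratio varied little among the lists. A second reproducible peak at 1728078 had a pooled signal of 241 (rank 963), and neither replicate listed a summit within 100 bp of it. The nearest replicate summits, 158 and 187 bp away, were those of the main peak, so the replicates did not resolve a second one. At the first start site of Eno, which overlaps the gene Rrp40 on the other strand, the pooled list held only a summit of 53.9, 226 bp into Eno.

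Pgk (FBgn0250906) encodes the first ATP-yielding enzyme of the pathway and lies on 2L from 2746880 to 2753068 on the minus strand. It has 5 annotated start sites with 1 transcript each. Its window held 6 reproducible summits, the most among the 9 genes. The strongest in the pooled list, at 2752133, had a pooled signal of 508 (rank 184), 317 in replicate 2 (rank 117) and 173 in replicate 3 (rank 450). It stood in the first intron of Pgk, 935 bp inside the first start site, and also 312 bp upstream of the start site of Bacc, a gene on the other strand that overlaps the 5′ end of Pgk. By position alone, binding for Pgk and for Bacc cannot be told apart. The next strongest, at 2754739 and 2754942, had pooled signals of 430 and 305 and lay in an intron of Bacc, 1671 and 1874 bp upstream of Pgk. Replicate 2 gave them 187 (rank 406) and 64.3 (rank 2868), and replicate 3 gave 215 (rank 267) and 143 (rank 734). In replicate 3 the first of these was the strongest of the Pgk window, above the intron summit.

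The other 3 reproducible Pgk summits were each within 500 bp of an internal Pgk start site. The summit at 2748781, 294 bp upstream of the innermost start, had a pooled signal of 244, with 158 in replicate 2 and 81.7 in replicate 3. At 2748980, 333 bp inside another start site, the pooled signal was 188, with 131 and 50.6 in the replicates. At 2750512, 365 bp upstream of a different internal start, it was 143, with 113 and 36.2. The outermost start site of Pgk, at 2753068, had no reproducible summit: the pooled signals were 63.3, 41 bp upstream, and 79.3, 188 bp inside. Replicate 3 listed a summit of 95.9 (rank 1707) 206 bp inside it. The 300 bp around that start site, from 250 bp before to 50 bp after it, held GAGAG 14 times, counting overlapping matches. This was the highest count of any member window searched.

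**Figure D3:**
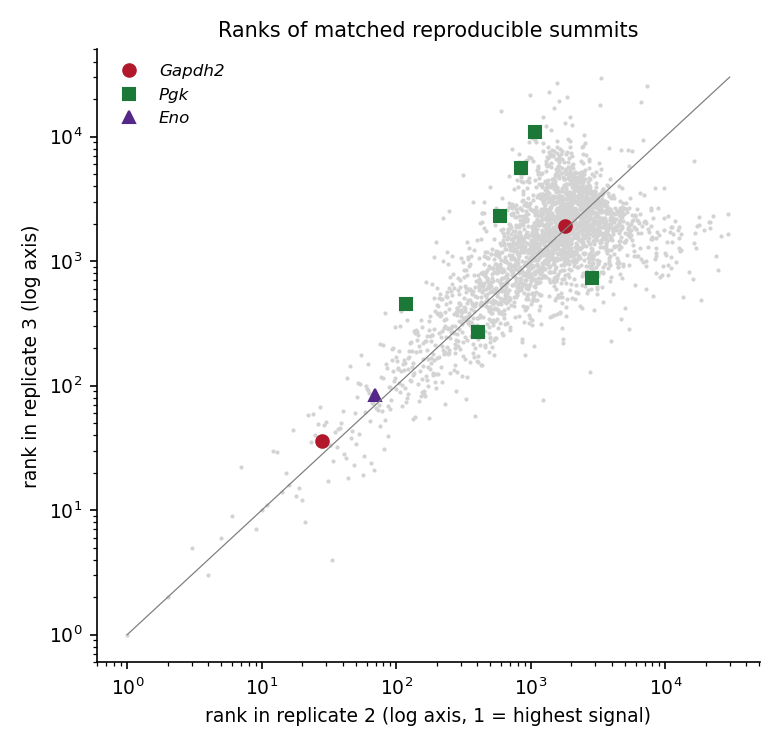
Rank in replicate 2 (x axis) against rank in replicate 3 (y axis), both on log axes, for reproducible summits with a summit within 100 bp in both replicate lists, 2614 in all, in grey. Gapdh2 (circles) and Eno (triangle) sit close to the line of equal rank, while 4 of the 6 Pgk summits (squares) ranked higher in replicate 2 and the other 2 in replicate 3.

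The main Gapdh2 and Eno summits ranked alike in the 2 replicates, at 28 and 36 and at 69 and 84, while ranks along Pgk differed more, as at 2750512 with 1080 and 10807. The replicate lists share no stated scale, so a ratio of their signals has meaning only beside that of other peaks. Signal in replicate 2 over that in replicate 3 was 1.20 at the main Gapdh2 summit, 0.947 at the second one and 1.18 at the main Eno summit. Over the 2614 reproducible peaks matched in both lists, this ratio had a median of 0.986 and quartiles of 0.766 and 1.24. All 4 reproducible summits inside Pgk were higher in replicate 2, with ratios of 1.93, 2.59, 3.12 and 1.83. Only 5.32% of matched peaks had a ratio of 1.83 or more. The 2 summits in the Bacc intron went the other way, at 0.867 and 0.450, and 5.28% of matched peaks had a ratio of 0.450 or less. With 1 sample behind each value, whether these differences exceed the spread between samples cannot be tested. In all, 9 of the 10 reproducible member summits had a summit within 100 bp in both replicate lists, against 88.9% of all reproducible peaks. Of the 10, 7 were also among the best 2942 of both replicates, against 60.5%.

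A difference between the replicates also appeared at the very start of the gene models, a region chosen after its values were seen. In the first 250 bp of the gene model, 4 of the 9 genes had a summit in replicate 3 and none in replicate 2, against 6.07% of protein-coding genes. They were Gapdh2 with a replicate 3 signal of 83.4, Pgk with 95.9, Ald1 with 22.0 and Eno with 41.3. No member had one there in replicate 2 and not in replicate 3, against 3.08%, and none had one in both, against 2.3%. All 4 were far below the main Gapdh2 signal of 405 in that list, and what set them apart from replicate 2 was not tested. The Pgk summit also lay 62 bp inside the start site of Bacc, and the Eno summit lay in coding sequence of Rrp40. At Gapdh2 the main replicate 2 peak, from 15867808 to 15868163, already covered the first start site.

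The steps from Pgi to Tpi had weak candidate summits only. Pgi (FBgn0003074), on 2R from 8910900 to 8914069, had 1 pooled summit, of signal 44.2 (rank 19691), in the coding sequence of the neighbouring gene CG30349. Pfk (FBgn0003071), on 2R from 10109740 to 10117457, had 5, the strongest of 98.4 (rank 4591) at 1870 bp upstream, in the 3′ UTR of 14-3-3zeta. Near that position replicate 2 listed 41.1 at 1953 bp upstream and replicate 3 listed 58.2 at 1736 bp upstream. The strongest Pfk summits of replicate 3 were at the other end, 62.1 (rank 3833) in the Pfk 3′ UTR, 414 bp upstream of the neighbouring gene dmpd, and 59.0 just past the gene, 103 bp upstream of dmpd. Within Pfk itself the summit nearest a start site, 414 bp inside, had a pooled signal of 71.0. Ald1 (FBgn0000064), on 3R from 26254069 to 26261591, had 8 pooled summits from 34.7 to 64.9. The strongest was in its 3′ UTR, and the next, of 60.1, stood 390 bp inside one of its 5 start sites.

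Tpi (FBgn0086355), on 3R from 30132981 to 30134599, was the only gene of this weaker group whose strongest pooled summit was a short way upstream of a start site. It stood 242 bp upstream with a signal of 70.6 (rank 8076), and the replicates listed 20.8 at 328 bp and 40.8 at 238 bp upstream. Against Tpi, the Gapdh2 signal was 12.6 times as high in the pooled list, 23.3 times in replicate 2 and 9.92 times in replicate 3. Pglym78 (FBgn0014869), on 3R from 29148248 to 29149901, had no summit in the pooled list or in replicate 3. Replicate 2 listed 2, of 26.5 and 22.0, in the coding sequence of the adjacent gene eIF2D. They ranked 15494 and 22574 of the 30000 peaks of that list, whose lowest signal was 18.9.

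**Figure D4:**
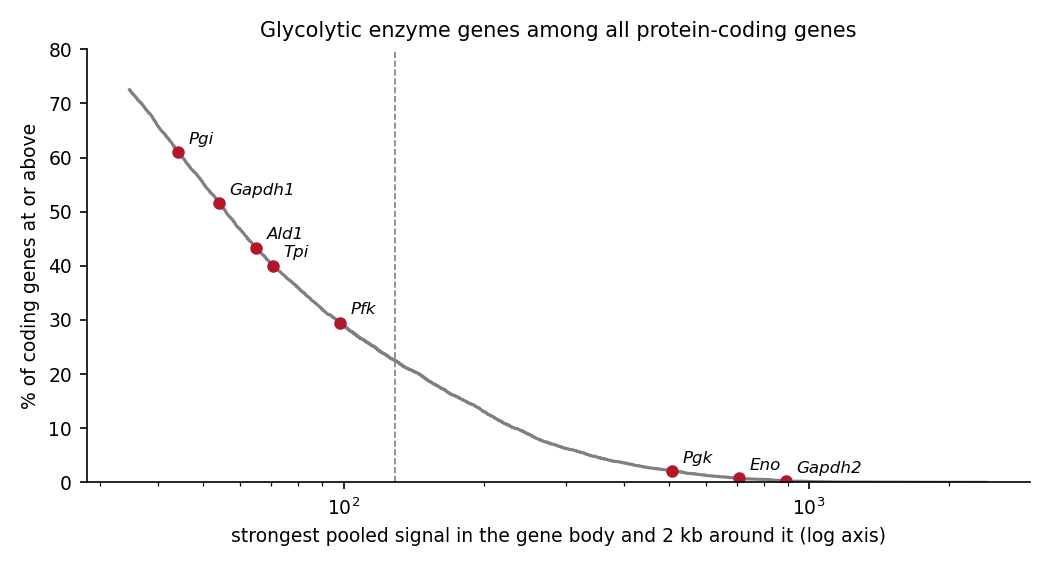
Share of all 13945 protein-coding genes (y axis, percent) whose strongest pooled signal in the gene body and 2 kb around it is at or above the value on the x axis (log axis). Red points are the 8 members with a pooled summit, and the dashed line is the lowest reproducible signal, with Gapdh2, Eno and Pgk to its right and the other 5 to its left.

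The 9 genes therefore fell into a high group and a low group, with a gap between them. The strongest pooled signals of Gapdh2, Eno and Pgk were reached by 0.258%, 0.739% and 2.11% of protein-coding genes. Those of Pfk, Tpi, Ald1, Gapdh1 and Pgi were reached by 29.5%, 40.0%, 43.3%, 51.5% and 61.0%. Among genes with any pooled summit, the median strongest signal was 79.2, so Pfk stood above it and the other 4 below. The limit of 129 fell in the gap. The member summits just inside it were the second Gapdh2 summit at 180 and the weakest of Pgk at 143, and those just outside were 114 near Gapdh2, 106 in Pgk and 100.1 near Eno. The 3 just outside were in windows of the same 3 genes, and the strongest of any other member was 98.4 at Pfk.

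The positions of the 10 reproducible summits had some features in common. They form 7 separate regions once overlapping peaks are joined, and 6 of them lie inside a member gene and 4 outside. The coding start site nearest to a summit belonged to the member in 6 cases, to Bacc in 3 and to CG16952 in 1. Within 500 bp of a member start site there were 6, and within 250 bp only the main summits of Gapdh2 and Eno. Both of these 2 stood upstream of the start site they were near. Their peaks were also narrower than the standard 536 bp of the list, at 380 bp for Gapdh2 and 179 bp for Eno, as were 10.0% of reproducible peaks.

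The base composition and the 3 motifs with a match differed among the main summits. The share of G and C in 300 bp was 34.7% at Gapdh2, 37.7% at Eno and 43.3% at Pgk, and the median was 35.3% over reproducible summits, 38.7% over the other pooled summits and 38.0% over start-site windows. Pgk was above all of these medians and Gapdh2 below them. TATAAA was present at Gapdh2 and Pgk, as in 51.1% of reproducible, 38.6% of other pooled and 45.8% of start-site windows. GAGAG was present at Gapdh2 and on the exon side of the 300 bp Eno window, which is not printed above, as in 35.5%, 30.4% and 29.7%. ACGTG was present at Gapdh2 and Pgk, as in 20.1%, 21.5% and 23.2%. The letters AAGGTCA, to which the estrogen-related receptor ERR binds, were in none of the 3 windows. They were in 2.18% of reproducible and 2.11% of start-site windows. Other member windows did hold AAGGTCA: at the second Eno summit (1728078), at pooled summits of Pgi and Gapdh1, and at start sites of Ald1, Tpi, Pgk and Pglym78. A match describes the letters in the window, and no binding of these factors was measured.

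The enzymes and regulators around the 9 steps were taken from a list of 43 genes of hexose and pyruvate metabolism, of which 20 (46.5%) had a reproducible summit in their window, against the background of 22.6%. Among the best 2942 peaks of each replicate, 19 of the 43 had one in replicate 2 and 19 in replicate 3. The median window of the list was 7431 bp, against 6166 bp for all protein-coding genes. The list was chosen with earlier results of these data known, so its shares are descriptions and nothing is read from them. The strongest summit lay within 500 bp of an own start site in 13 of the 43 genes, where 12.1% of all protein-coding genes had any reproducible summit that near, and was nearest to an own start site in 14. In the other 6 it was nearer to a different gene.

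At the entry to glycolysis, 2 of 4 hexokinase genes had a reproducible summit. That of Hex-A, a hexokinase that phosphorylates glucose, had a pooled signal of 672, 289 bp upstream of a start site. That of Hex-C was 821, but it lay 2574 bp from its own start site and 138 bp upstream of mRpL41. Past Eno, both genes at the end of the pathway had one: 215 at PyK (pyruvate kinase), 459 bp upstream, and 660 at Ldh (lactate dehydrogenase), 215 bp upstream. Ldh was 324 in replicate 2 (rank 110) and 334 in replicate 3 (rank 69). Pfrx, whose product makes the activator of phosphofructokinase, had 196 at 293 bp upstream. None of 4 further listed genes (Pglym87, Ald2, CG9961 and CG7024) had any summit in the pooled list.

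Storage sugars and side branches gave a mixed picture. Glyp (glycogen phosphorylase, which releases glucose units from glycogen) had 762 at 196 bp upstream (rank 54), with 414 in replicate 2 and 346 in replicate 3. Treh (trehalase) had 481, though nearer to the start site of CG10527, and Pgm1 (phosphoglucomutase) had 209, nearer to that of SsRbeta. The other 4 glycogen and trehalose genes had none. In the pentose phosphate pathway 3 of 7 had one: 577 at CG8036, 382 at Zw (glucose-6-phosphate dehydrogenase) and 155 at Pgd (6-phosphogluconate dehydrogenase). In gluconeogenesis 2 of 4 did, 426 at PCB (pyruvate carboxylase) and 219 at fbp (fructose-1,6-bisphosphatase). For the entry of pyruvate into mitochondria 2 of 4 did, 249 at Mpc1 (mitochondrial pyruvate carrier), nearer to CG42613, and 217 at Pdhb (a pyruvate dehydrogenase subunit). Neither of the 2 glycerol phosphate genes nor of the 2 sugar transporters reached the reproducible set.

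Of 6 genes for transcription factors known to act on sugar metabolism, 5 had a reproducible summit, against 22.6% of all protein-coding genes. ERR had 347, 199 bp upstream of an own start site and 13 bp inside Atg18a. The rest were near the limit: 151 at sima (the fly hypoxia-inducible factor), 144 at bigmax, 135 at sug and 130 at Mondo. Of these, sug was in the best 2942 peaks of neither replicate, bigmax was not in those of replicate 2 and Mondo not in those of replicate 3. The only sima peak among those of replicate 3 was a different one, 3491 bp inside a start site. The remaining one, tgo, reached 93.6 in the pooled list, though its summit of 93.9 in replicate 3 (rank 1775) was among the best 2942 of that list. The sima summit lay 6683 bp upstream of its nearest own start site, in a window that held 30 pooled summits. The median over protein-coding genes was 2 pooled summits per window, and the 22.6% is not matched for window length. The bigmax summit was nearer to the start site of Hmu, while those of sug and Mondo were nearest to an own start site. These values describe binding at the genes for the factors and carry no information on their activity.

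**Figure D5:**
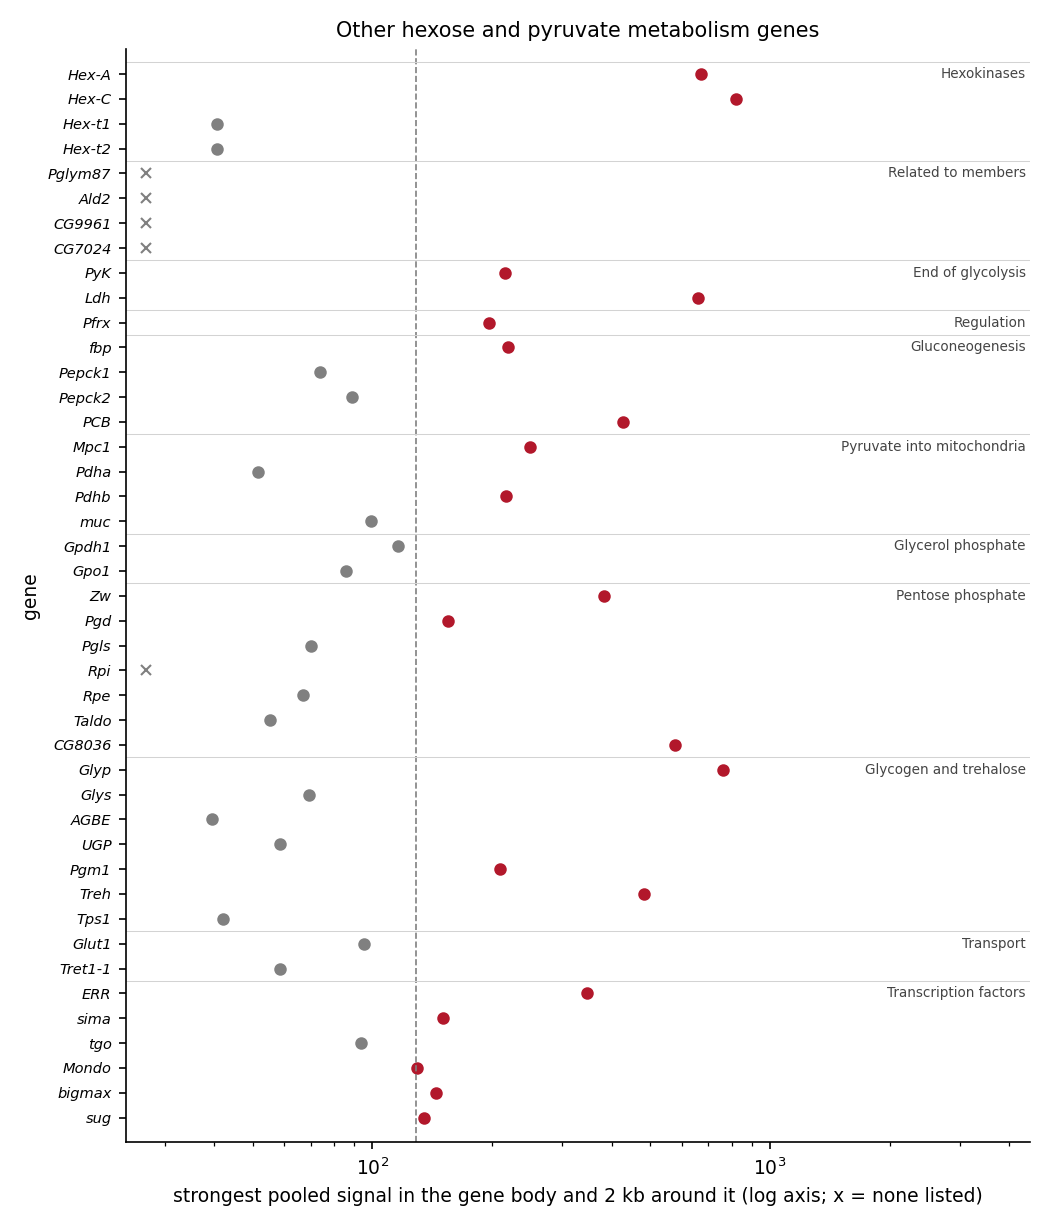
Strongest pooled signal (log axis) in the gene body and 2 kb around it for the 43 other genes of hexose and pyruvate metabolism, grouped by role. Red points are the 20 genes with a reproducible summit, grey points the genes without one, crosses the 5 with no pooled summit, and the dashed line is the lowest reproducible signal.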

How the data were processed

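The samples were 2 biological replicates of anti-GFP ChIP-seq from embryos with GFP-tagged Su(var)2-10, with chromatin sheared to 200 to 800 bp per the labels. Per the submitters' file notes, a control was used in calling each replicate list, and pooled alignments gave the pooled list. The aligner, peak caller and IDR version were not given in the sources used here. Peak signal is the authors' deposited score, the deposited −log10 q came with it, and the deposited offset, another column, gave the summit. Lists on dm3 were not used.

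Ensembl release 115 (BDGP6.54) gave genes and start sites, and RefSeq Release 6, whose arm lengths enclose all peaks, gave sequence. A summit was assigned to a gene when it lay in the gene body or 2 kb around it, and upstream means before the nearest annotated start site. Protein-coding genes on 6 arms gave the background. Motifs were exact letters on both strands. Python 3.11.15 with numpy 2.4.6, pandas 2.3.3, biopython 1.88 and matplotlib 3.10.9 were used, and the assignment was tested on simulated data.

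No test between conditions was possible with 1 group, and replicates were compared by values. The members, gene list and motifs were chosen with earlier results of these data known. Named genes were all members, listed genes with a reproducible summit, the gene with the nearest start at each reproducible summit, and the 2 start-site peaks on each side of Gapdh2 in signal.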

Additional observations from a re-analysis of the deposited data

How the results depend on the processing

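Of 33 alternative settings over 8 results, 29 stayed within the limits used, which were a factor of 1.5 for counts and ratios and 1 SD of the replicate values otherwise. The factor lets 2 and 4 pass beside a count of 3, and the SD came from replicate values that were themselves judged. The tally therefore depends on these limits and is not a test. The count of members with a reproducible summit was 3 with flanks of 1 kb, 4 with 5 kb and 2 in gene bodies only, where the upstream Gapdh2 peak falls out. Within 500 bp of the 5′ end of the gene model alone, in place of any annotated start site, 1 member (Gapdh2) had a reproducible summit in place of 3, since those of Pgk and Eno lie at internal start sites. Ranked by −log10 q, the Gapdh2 peak was tied at rank 1 with all of the 1254 pooled peaks at the highest value, so that scale does not order the strongest peaks. With either replicate left out, the rank of the Gapdh2 peak was 28 to 36 in place of 26, and its distance from the start site was -153 to -138 bp. Leaving out a replicate kept the count at 3 members. The Gapdh2 to Gapdh1 ratio was 11.1 to 16.5 over the settings, and had no value in replicate 2, which lists no Gapdh1 summit. No paired analysis was possible because there is 1 group and no comparison between groups. The unknown depth limits the weak summits most, and a list of fixed length says nothing of sites below its end.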
